A study of Mus musculus with 4 samples.

Results

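Cluster 17 is the smallest of the 17 clusters the authors deposited for 4 sagittal mouse brain sections, and its spots carry the label of parvalbumin interneurons (Pvalb) more than any other. Its members are all spots with that cluster number, 58 of 14809 spots in all. A spot is a small barcoded patch of the slide that can hold several cells, and the authors gave each spot a share of each of 67 cell types, here in percent of the spot. Of the 58 spots, 45 came from the control section, 2 from the resilient, 11 from the susceptible and 0 from the ketamine-treated susceptible section.

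All mice were wild type, of the strain labelled C57. The resilient and susceptible mice had been through chronic social defeat stress, in which a mouse is repeatedly attacked by an aggressor, and were told apart by whether they still approached another mouse. The ketamine-treated mouse was a susceptible one given 10 mg/kg ketamine into the abdominal cavity, and brains were taken 7 days later. The other mice, the control included, received saline. Each group was 1 section, so differences between mice, cutting planes and slides cannot be told apart from the condition, and no p-value is given. Intervals are exact Clopper-Pearson 95% intervals over spots. They cover counting error only, since neighbouring spots of a section share their source.

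Parvalbumin interneurons are inhibitory, GABA-releasing neurons that fire fast trains of spikes and contact the cell body and first axon segment of their targets. Their axons are often wrapped by oligodendrocytes, the cells that make myelin, the sheath named in the series title. Parvalbumin is also made by neurons outside the cortex and hippocampus, among them cells of the cerebellum and thalamus. Of the 67 deposited type headers, 0 name the cerebellum, thalamus, striatum, midbrain or hindbrain. Which label a spot of such a region would receive was not tested. The shares are relative, so more of one type and less of the others cannot be told apart, and no gene counts or spot positions were analysed here.

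Pvalb was found in 47 of the 58 spots (81.0%, 68.6 to 90.1) and had the highest share in 34 (58.6% of the 58, 44.9 to 71.4). The label thus describes the cluster as a whole, but not every spot. Pvalb led 29 of 45 control spots, 1 of 2 resilient spots and 4 of 11 susceptible spots. The mean Pvalb share over all 58 spots was 39.99% ± 26.1 (SD over spots). These shares stem from the same spots that were clustered, so the Pvalb values describe the cluster and test nothing. For comparison, Pvalb was in 21.2% of the 2920 spots of cluster 1 (19.8 to 22.8), where its mean share was 7.13%.

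Within each section the Pvalb share of members spread widely. The lowest control value was 0%, the median 44.3% and the highest 100%, with 7 of 45 spots at 0. In the susceptible section it ran from 0% through a median of 37.7% to 100%, with 4 of 11 spots at 0. The 2 resilient spots had 51.95% and 18.2%. The sections overlapped over nearly their whole range. The control mean was 40.9% ± 23.5 (45 spots) and the susceptible mean 37.0% ± 37.2 (11 spots), a difference of -3.97 percentage points. The medians differed by -6.61 points, and the part of members that held Pvalb by -20.8 points, with overlapping intervals (63.6%, 30.8 to 89.1, against 84.4%, 70.5 to 93.5).

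**Figure D1:**
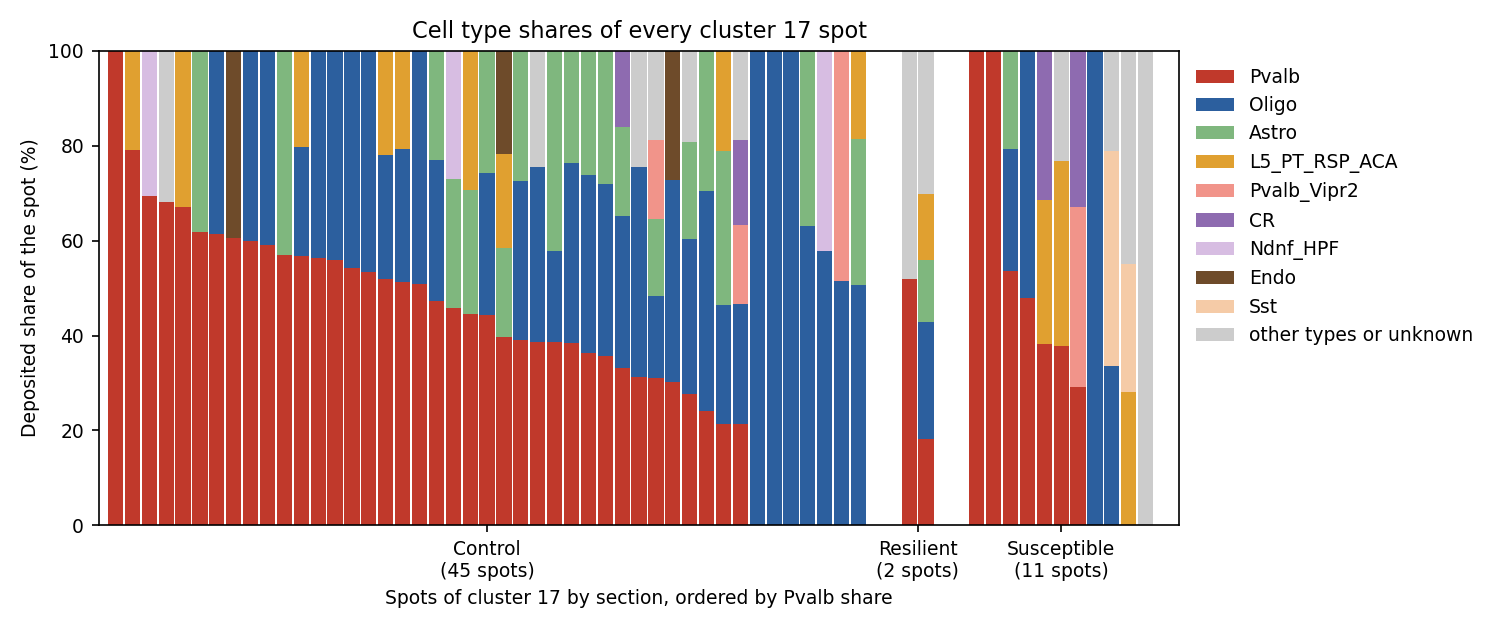
Each bar is 1 spot of cluster 17, grouped by section and ordered by its Pvalb share, and the stacked colours give the deposited share of each cell type in percent of the spot. Pvalb (red) was present in 38 of 45 control, 2 of 2 resilient and 7 of 11 susceptible spots, and Oligo (blue) had the next highest mean share in the control section, 32.8%.

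Oligo, the oligodendrocyte type, was the second component. It was held by 39 of 58 spots (67.2%, 53.7 to 79.0), with a mean share of 29.5% ± 27.4, and led 17 of them. Beside Pvalb alone it formed 9 spots, and beside Pvalb and astrocytes (Astro, the supporting glia of the brain) another 9. These were the most frequent combinations in the cluster. Astro was in 21 spots (36.2%, 24.0 to 49.9), with a mean share of 9.81% ± 14.0, and had the highest share in 2. These pooled shares rest on the control section: over the 13 members of the other sections the mean was 18.2% for Oligo and 2.603% for Astro. In the 9 spots made up of Pvalb and Oligo only, Pvalb had 55.5% ± 4.41 and ranged from 47.8 to 61.4%. In the 9 spots of Pvalb, Oligo and Astro it had 39.7% ± 8.29. Pvalb took the whole spot in 3 cases, 1 in the control and 2 in the susceptible section.

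Neuronal types other than Pvalb were in 26 of 58 spots (44.8%, 31.7 to 58.5) and made up 16.9% of the average member, each in a small number of spots. Of the 11 GABAergic types, 6 were seen in any member and 5 (Lamp5, Lamp5_Lhx6, Pax6, Sncg and Vip) in 0 of 58 spots, which allows up to 5.17% of spots each. Pvalb_Vipr2, the type of chandelier cells, which are Pvalb neurons that contact the start of the axon, was in 4 spots with a mean share of 2.06%. In 1 susceptible spot it led with 37.9%. Ndnf_HPF, interneurons named for the gene Ndnf and the hippocampal formation, was in 3 spots, all from the control, with a mean share of 1.72%. Sst, somatostatin interneurons, and Sst_Chodl, long-range somatostatin neurons, were in 2 spots each, and Meis2 in 1. All 11 GABAergic types together made up 46.1% of the average member.

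Glutamatergic neurons, the excitatory cells of cortex and hippocampus, contributed 10.8% of the average member and were present in 21 of 58 spots (36.2%). Their mean share was 7.13% in control, 39.4% in resilient and 20.8% in susceptible members, and 23.6% over the 13 members outside the control section. Of their 47 types, 9 were seen. L5_PT_RSP_ACA, layer 5 neurons that project out of the cortex and are named for retrosplenial and anterior cingulate areas, was the main one, with 13 spots and a mean share of 5.46% ± 10.7 (8.54% without the control section). CR, named for Cajal-Retzius cells, was in 4 spots (mean 1.70%, and 4.96% without the control section). The other 7 were in 1 or 2 spots each. One of these was CA3, a hippocampal pyramidal type, which filled 48.0% of a single resilient spot, the other part being Pvalb. Among the 9 non-neuronal types, Endo (the lining of blood vessels) was in 3 spots and Micro (microglia, the immune cells of the brain) in 1. OPC, the precursors of oligodendrocytes, was in 0 of 58 spots. So were Peri, SMC and VLMC, types of vessels and brain coverings, and PVM, macrophages beside vessels.

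The 11 members without any Pvalb were mostly oligodendrocyte spots. Oligo was in 9 of them, and 4 held nothing else. All 7 such control spots held Oligo, with shares from 50.6 to 100%. It stood alone in 3 of these, and in 1 each it was joined by Ndnf_HPF (42.1%), Pvalb_Vipr2 (48.4%), Astro (36.9%), or Astro with L5_PT_RSP_ACA. The 4 such spots of the susceptible section differed among themselves. One was Oligo alone and 1 had no assigned type (unknown, the whole spot). Another combined Sst at 45.3% with Oligo and CA1, a hippocampal type, and the last combined L5_PT_RSP_ACA at 28.1% with Sst, Sst_Chodl and L2_IT_ENTl, an entorhinal layer 2 type.

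The cluster held a small part of all Pvalb in the data. By summed share it took 12.7% of the Pvalb of the control section, with 1.21% of that section's spots. It took 0.492% in the resilient and 3.996% in the susceptible section. Cluster 1 held 46.5%, 58.6% and 29.7% in the same sections and 33.5% in the ketamine-treated section. Cluster 2 held more than cluster 1 in the susceptible (48.3%) and ketamine-treated (38.2%) sections. A limit of at least 50% Pvalb, chosen after the values were seen, was reached by 53 control spots, of which 19 were in cluster 17 and 20 in cluster 1. The resilient section had 41 such spots (1 and 24), the susceptible 46 (3 and 13) and the ketamine-treated 30 (0 and 10). Cluster 2 held 24 of those in the susceptible and 13 of those in the ketamine-treated section, more than cluster 1. Clusters 17 and 1 of the control thus held nearly the same number of such spots, although cluster 1 had 929 spots and cluster 17 had 45.

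The ketamine-treated section had no spot in cluster 17, and 0 of 3477 spots allows a share of up to 0.0863%. It did hold Pvalb elsewhere, in 232 spots (6.67%, 5.87 to 7.55), of which 77 were in cluster 1 and 87 in cluster 2, a cluster led by L5_PT_RSP_ACA in every section. Outside cluster 17, the control section had 369 spots with Pvalb (9.88% of its 3733, 8.95 to 10.9). The resilient section had 428 (10.3% of 4156, 9.39 to 11.3), and the susceptible section had 270 (7.84% of 3443, 6.97 to 8.79). Without the members, the order of the sections in Pvalb-bearing spots changed only at the top, where the intervals of the control and resilient sections overlapped with and without them. How the clustering was done is not given, and each group was 1 section. What set the number of members in a section was not tested, so the member counts are not read as a change.

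Cluster 1 was set against cluster 17 because it held 620 of the 1346 Pvalb-bearing spots, the most of any cluster. In the 47 Pvalb-bearing spots of cluster 17 the Pvalb share was 49.3% ± 19.3 (median 47.8%, from 18.2 to 100%). In the 620 of cluster 1 it was 33.6% ± 13.7 (median 30.7%, from 12.2 to 100%). The difference was 15.8 percentage points, and 48.9% of the first set (34.1 to 63.9) against 10.8% of the second (8.47 to 13.5) had at least 50% Pvalb. Pvalb had the highest share in 34 of 47 spots (72.3%, 57.4 to 84.4) against 221 of 620 (35.6%, 31.9 to 39.6). The ranges overlapped, so single spots of the clusters could not be told apart by Pvalb share alone. The other clusters with over 50 Pvalb-bearing spots were clusters 2, 3, 9 and 11, where the mean was 35.0%, 34.4%, 33.9% and 35.7%. Among clusters with fewer such spots, the means closest to or above that of cluster 17 were 45.5% in cluster 15 (12 spots), 47.6% in cluster 5 (8 spots) and 51.95% in cluster 4 (1 spot).

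**Figure D2:**
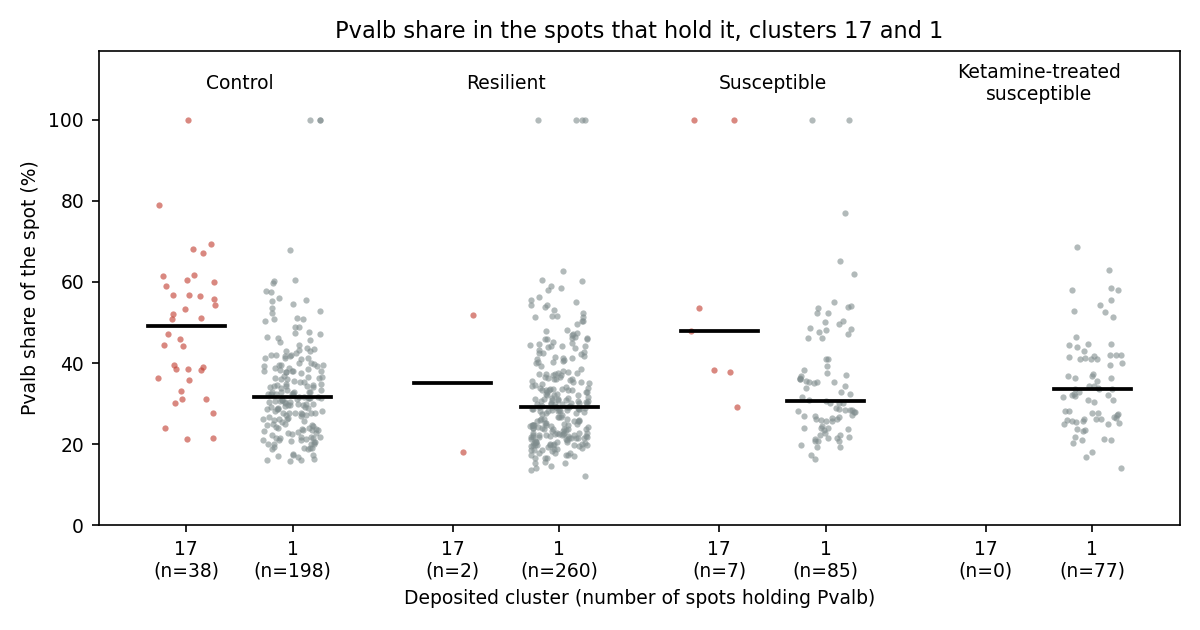
Points are spots that held Pvalb, with their Pvalb share in percent of the spot on the vertical axis, for clusters 17 (red) and 1 (grey) in each section, and the black lines are medians. In the control section the median was 49.1% in cluster 17 and 31.7% in cluster 1, and the ketamine-treated section had no cluster 17 spot.

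The control section, with 38 and 198 Pvalb-bearing spots in the 2 clusters, allowed the comparison within 1 section. Pvalb was at 48.5% ± 16.7 in cluster 17 and 34.0% ± 13.3 in cluster 1. Spots of cluster 1 kept more types, 3.12 on average against 2.76. Among control spots with exactly 2 kept types, Pvalb was at 60.9% ± 7.35 (15 spots) against 45.5% ± 9.24 (42 spots). Among those with exactly 3 it was at 40.9% ± 8.70 (16 spots) against 32.7% ± 7.32 (91 spots). With exactly 4 types it was at 30.5% ± 7.76 (4 spots) against 25.7% ± 6.98 (53 spots). With exactly 5 it was at 26.2% (2 spots) against 20.5% (9 spots). In control spots made of Pvalb and Oligo only, it ranged from 50.9 to 61.4% in the 8 spots of cluster 17, and from 27.7 to 53.5% in the 13 spots of cluster 1. With the number of types held equal, the difference in the control section was therefore still present. It was smaller at 3 to 5 types, with 8.16 points at 3 types instead of 14.5. In the susceptible section the sets were 58.1% ± 29.7 (7 spots) and 35.6% ± 15.8 (85 spots), and with exactly 2 types, where cluster 17 had 1 spot, the difference turned to -2.62 points.

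The types found beside Pvalb also differed between the clusters. Pvalb-bearing spots of cluster 17 kept fewer types, 2.74 on average against 3.27 in cluster 1. Partners were not compared at an equal number of types. Glutamatergic types accompanied Pvalb in 18 of 47 spots of cluster 17 (38.3%, 24.5 to 53.6) and in 474 of 620 of cluster 1 (76.5%, 72.9 to 79.7). L2_IT_RSPv, layer 2 neurons named for the ventral retrosplenial cortex, was in 2 of 47 spots (4.26%, 0.520 to 14.5) against 218 of 620 (35.2%, 31.4 to 39.1), with mean shares of 0.877% and 11.7%. L5_PT_RSP_ACA was in 11 of 47 (23.4%, 12.3 to 38.0) against 272 of 620 (43.9%, 39.9 to 47.9), with mean shares of 5.75% and 11.3%. The intervals of both types did not overlap between clusters. These shares too stem from the spots that were clustered, so they describe the clusters and test nothing. In the control section alone L2_IT_RSPv was in 1 of 38 against 82 of 198 spots (2.63%, 0.0666 to 13.8, against 41.4%, 34.5 to 48.6). For L5_PT_RSP_ACA the intervals there overlapped, at 21.1% (9.55 to 37.3) and 31.3% (24.9 to 38.3).

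Oligo and Astro were shared partners. Oligo accompanied Pvalb in 63.8% of spots of cluster 17 (48.5 to 77.3) and 53.5% in cluster 1 (49.5 to 57.5), with mean shares of 22.4% ± 18.6 and 17.8% ± 19.0. Astro did so in 40.4% (26.4 to 55.7) and 42.6% (38.7 to 46.6). The intervals overlapped for both. Spots with no partner but Oligo were more frequent in cluster 17, at 9 of 47 (19.1%, 9.15 to 33.3) against 33 of 620 (5.32%, 3.69 to 7.39). Among control spots these were 8 of 38 (21.1%, 9.55 to 37.3) and 13 of 198 (6.57%, 3.54 to 10.97), with overlapping intervals. Exactly 2 types of any kind were kept in 36.2% of the pooled Pvalb-bearing spots of cluster 17 and 18.5% of those of cluster 1. Oligo exceeded Pvalb in 10 of 47 spots (21.3%, 10.7 to 35.7) against 210 of 620 (33.9%, 30.1 to 37.7), with overlapping intervals.

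Types were compared where their mean share reached 1% in one or both sets of Pvalb-bearing spots. Of 12 such types, 8 differed at least 1.5-fold (66.7%), 4 of them higher in cluster 17 and 4 lower. Between the Pvalb-bearing spots of clusters 2 and 1 it was 11 of 12 (91.7%), so such a share was not particular to cluster 17. Pvalb_Vipr2 was at 1.52% against 0.139%, in 3 of 47 (6.38%, 1.34 to 17.5) and 4 of 620 spots (0.645%, 0.176 to 1.64), with overlapping intervals. CA3 was at 1.02% against 0.119% and rested on 1 spot of cluster 17. CR was at 2.10% against 0.893% and Endo at 1.88% against 0.827%, both with overlapping intervals of their spots. Lower, besides L2_IT_RSPv and L5_PT_RSP_ACA, were L2_IT_RSP_ACA, a layer 2 type of the retrosplenial and cingulate cortex (0.495% against 1.61%), and NP_SUB, near-projecting neurons of the subiculum. NP_SUB was in 0 of 47 spots, which allows up to 6.38%, against 30 of 620 (4.84%, 3.29 to 6.84), so a lower frequency was not detectable at this number of spots. Within the control section alone, 4 of 9 types passed (44.4%). They were Endo, which was higher and in 3 spots of each set, and L2_IT_RSPv, L5_PT_RSP_ACA and L2_IT_RSP_ACA, which were lower.

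**Figure D3:**
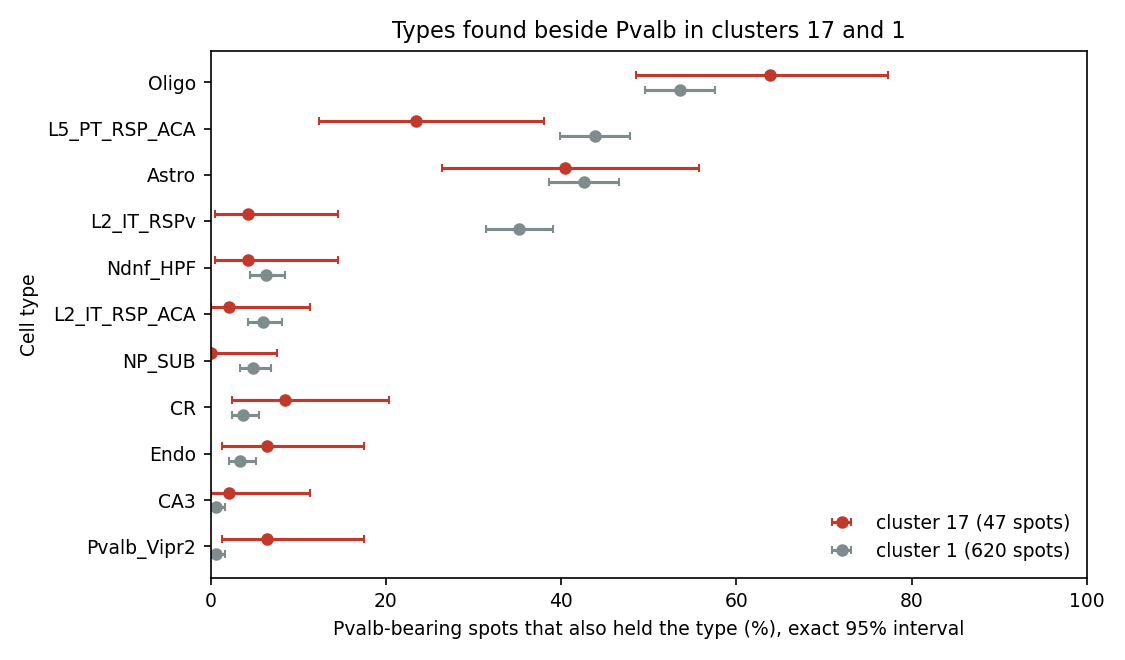
Among spots that held Pvalb, the points give the percentage that also held each named type, in cluster 17 (red, 47 spots) and cluster 1 (grey, 620 spots), with exact 95% intervals. L2_IT_RSPv and L5_PT_RSP_ACA were less frequent in cluster 17, with intervals that did not overlap, while those of Oligo and Astro overlapped.

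Susceptible and control members were compared to ask how the same cluster looked after stress with avoidance. Oligo was in 4 of 11 susceptible spots (36.4%, 10.9 to 69.2) and 34 of 45 control spots (75.6%, 60.5 to 87.1), with mean shares of 19.2% ± 32.3 and 32.8% ± 26.0. Astro was in 1 of 11 (9.09%, 0.230 to 41.3) against 19 of 45 (42.2%, 27.7 to 57.8), with means of 1.89% and 11.9%. Both intervals overlapped between the sections. The differences of -13.6 points for Oligo and -10.0 points for Astro carry no test across mice. In cluster 1, with 605 susceptible and 929 control spots, Oligo was at 25.3% against 32.6% and Astro at 23.5% against 27.1%. Both were lower in the susceptible section, but by less than 1.5-fold. These spots come from the same sections, so they are not independent of the members. In other clusters the direction varied. Oligo was at 72.1% against 70.1% in cluster 7 and at 25.6% against 40.4% in cluster 15. Astro was at 43.8% against 33.0% in cluster 8 and at 31.6% against 39.6% in cluster 3.

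By the same rule, 13 types were compared between the sections, and 12 differed at least 1.5-fold in cluster 17 (92.3%), against 7 of 21 over all spots of the sections (33.3%) and 5 of 13 in cluster 1 (38.5%). A single susceptible spot is enough to bring a type above 1%, since 1 spot at the smallest share kept in that section adds 1.01%. Pvalb was the type that did not pass. L5_PT_RSP_ACA averaged 8.84% over susceptible members, from 3 spots, and 4.57% over control members, from 9 spots. CR was at 5.86% against 0.757%, with 2 spots in each section, and Sst at 6.57%, from 2 spots, against 0 in the control. Ndnf_HPF and Endo were in 3 control spots each and in 0 of 11 susceptible spots. Of the 12, only Oligo, Astro and L5_PT_RSP_ACA were held by more than 3 spots in either section. The resilient section, with 2 members, and the ketamine-treated section, with none, allowed no such comparison. The 2 resilient spots held Oligo at 0% and 24.7% and Astro at 0% and 13.1%.

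In the deposited t-SNE map, a drawing that places spots of alike profile near each other, most members formed 1 compact patch beside cluster 1. Of the 10 nearest neighbours of each member, 80.3% also belonged to cluster 17, 8.45% to cluster 1 and 7.24% to cluster 2. The share in the own cluster was the lowest of all 17 clusters, where the others ranged from 91.0 to 99.1%. It was 90% for control members and 49.1% for susceptible members. At least 5 of the 10 neighbours were in the cluster for 42 of 45 control, 1 of 2 resilient and 7 of 11 susceptible spots. The other 4 susceptible spots lay among cluster 2 and held both of the members with Sst. Without the 8 spots that had fewer, the mean Pvalb share was 39.9%, against 39.99% with them, and the difference in Oligo between susceptible and control members was -6.23 points instead of -13.6. Without them Sst was in 0 members, and the higher mean of L5_PT_RSP_ACA in the susceptible section was gone (difference -0.0934 points). Other differences between these sections held or grew. Astro was at -9.78 points instead of -10.0, CR at 8.39 instead of 5.10 and Pvalb_Vipr2 at 3.47 instead of 1.63.

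**Figure D4:**
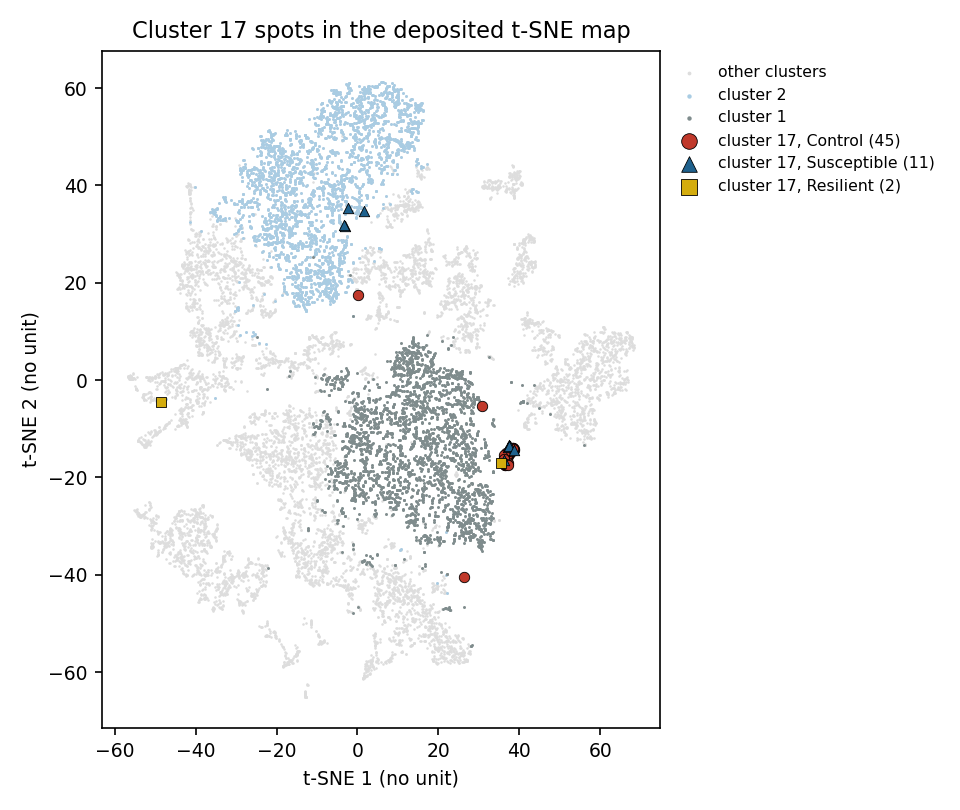
The authors' t-SNE map of all 14809 spots, whose axes have no unit, with members of cluster 17 drawn as large marks by section over clusters 1 and 2. Of the 58 members, 50 form 1 patch at the edge of cluster 1, and 4 susceptible members lie within cluster 2.

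The sections share barcodes, with 2503 present in all 4. All 45 barcodes of the control members occurred in each other section, and there they fell mostly into 1 cluster that was not cluster 17. In the resilient section 37 of the 45 (82.2%, 67.9 to 92.0) were in cluster 4, led by Sst_Chodl in that section, against 426 of the 3199 barcodes the sections shared (13.3%). In the susceptible section 37 were in cluster 2 (82.2%), against 735 of 2735 shared barcodes (26.9%), and in the ketamine-treated section 30 were in cluster 2 (66.7%), against 641 of 2783 (23.0%). Most barcodes of the control members thus fell into a single cluster in each other section. A barcode names a patch of the slide, so it need not mark the same tissue in another section. The ketamine-treated section had no cluster 17 spot, so there the barcodes could only fall into other clusters. The resilient section had 2 such spots and the susceptible section 11, so there most of the 45 barcodes had to fall elsewhere too. In the resilient section Pvalb was found at 0 of these 45 barcodes, which allows up to 6.67%, against 11.2% of all shared barcodes. Cluster 4 held Pvalb in 0 of its 426 resilient spots, and cluster 7, with 5 of the barcodes, in 0 of 231. Most of these barcodes thus lay in clusters that held no Pvalb in that section. Clusters and shares stem from the same spots, and why Pvalb was absent there was not tested. The susceptible section had it at 7 (15.6%, 6.49 to 29.5, against 9.10%), and the section of the ketamine-treated mouse at 13 (28.9%, 16.4 to 44.3, against 7.08%). Of the barcodes of the 11 susceptible members, 10 were in the control section, 6 in cluster 2 and 4 in cluster 5, which held 25.7% and 16.0% of the shared barcodes. In the resilient section 9 of them lay in 4 clusters, and in the ketamine-treated section 11 lay in 7 clusters. Where each barcode lay on the slide is not given in the sources used here, so whether the members were neighbours in the tissue was not tested.

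**Figure D5:**
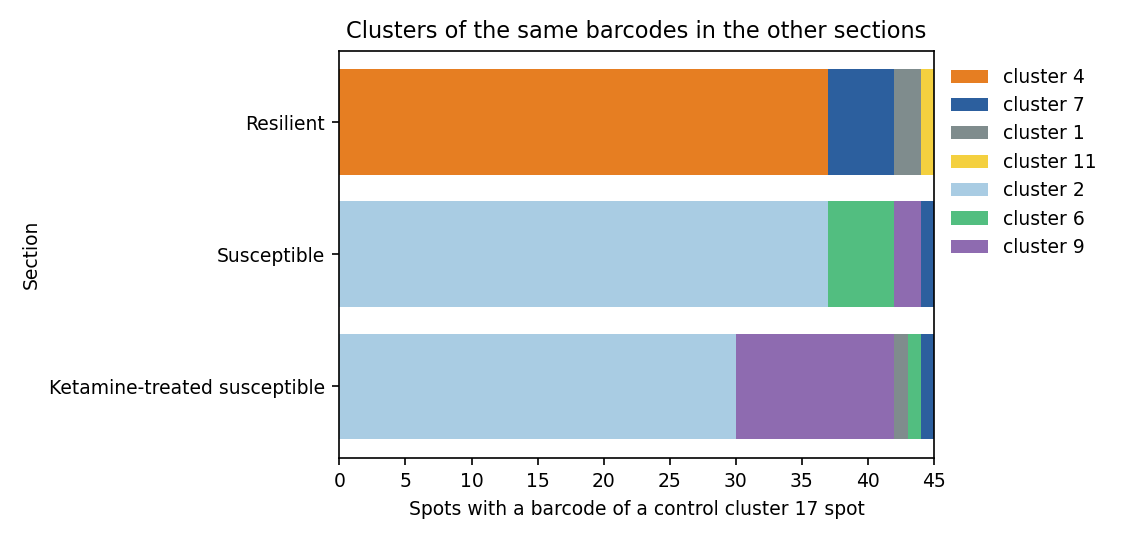
For the 45 barcodes of control cluster 17 spots, the stacked bars count the spots with the same barcode in each other section by their deposited cluster. Cluster 4 took 37 of 45 in the resilient section, while cluster 2 took 37 and 30 in the susceptible and ketamine-treated sections.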

How the data were processed

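Brain sections were placed on barcoded slides and sequenced, per the labels' protocols. The deposited tables give, per spot, a cluster number and the fraction assigned to each of 67 cell types or to unknown, and the fractions of a spot sum to 1. They are the authors' estimates. The sources used here do not give the clustering, the depth, or the method and reference behind the fractions. Per the submitters' processing notes, mm10 was the genome build. No kept fraction was below 10.1% of a spot. The cluster numbers were taken as 1 clustering of all sections. t-SNE barcode suffixes were joined to sections by identical barcode sets.

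Means and SDs over spots, spots holding or led by a type, and exact 95% intervals were computed in Python 3.11.15 (pandas 2.3.3, scipy 1.17.1) and checked on simulated data. A type counted as different at 1.5-fold among types of at least 1% in either set. A count of 0 was taken to allow 3 spots, which gives a smaller upper limit than the exact interval. Named were Pvalb, Pvalb_Vipr2, Oligo, OPC, Astro, every other GABAergic and non-neuronal type by its spots, types of at least 1% in the cluster, and types differing 1.5-fold from cluster 1. Others named were chosen after their values were seen. Members, lists and rules were chosen with earlier results of these data known.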

Additional observations from a re-analysis of the deposited data

How the results depend on the processing

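With 1 section per group and 58 members, 45 of them from the control, values pooled over sections mostly describe the control. Over the main results, 60 of 82 alternative values stayed within a 95% interval around the value reported (counts within 1.5 times), 21 moved and 1 reversed. The intervals were normal ones over spots for means and exact ones for shares. Those for the t-SNE map counted every neighbour of a spot as independent. Some alternatives also changed the measure, such as spots holding a type instead of its mean share, so the tally is only a rough guide. Leaving out each section in turn gave a pooled Pvalb share of 36.7 to 40.7%, an Oligo share of 18.2 to 31.9% and an Astro share of 2.60 to 11.7%. The lowest value of each was without the control section. Equal weight for each section gave 21.4% for Oligo. Medians over spots were 0 for Oligo in the susceptible section, and 0 for Astro pooled and in the control. By spots led by Pvalb, cluster 17 held 7.28% of all sections and 22.8% of the control, and by spots holding Pvalb 3.49% and 9.34%. Pvalb in cluster 17 minus cluster 1 was 7.39 points pooled and 8.16 in the control with exactly 3 kept types (chosen after seeing the data, as were the control-only and t-SNE core settings and the class means without the control), 32.9 and 33.7 points over all spots of both clusters, and -2.62 in the susceptible section with exactly 2 types, where cluster 17 had 1 spot. In the control section alone, 4 instead of 8 types differed 1.5-fold. For susceptible minus control, the difference in spots holding the type was -33.1 points for Astro and -39.2 for Oligo, the median difference for Astro was 0, and L5_PT_RSP_ACA reversed to -0.0934 points without members outlying in the t-SNE map. With neighbours from other sections only, 66.0% pooled and 70.0% of control neighbours were in cluster 17, and 86.7% of control neighbours with 20 neighbours. Comparisons with the ketamine-treated section, and those with the resilient section, were not run, as they had 0 and 2 members. No paired analysis was possible because each group has 1 section.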
